A study of Homo sapiens with 58 samples.

Results

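The peaks described here are 585 sites in 3' untranslated regions (3'UTRs) at which crosslinked HuR tags were higher in the nuclear fraction of Huh-7.5 cells after sodium arsenite. They were chosen from 37614 peaks annotated as 3'UTR among 387214 peaks of the deposited table. A peak was taken when its mean over the 3 nuclear arsenite libraries was at least 10 CPM (tags per 1000000 of the library total) and that mean plus 1 CPM was at least 2 times the nuclear mock mean plus 1 CPM. Of the 3'UTR peaks, 998 (2.65%) reached the minimum, and 585 of these (58.6%) also reached the ratio. The remaining 413 peaks over the minimum serve as the comparison.

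HuR, encoded by ELAVL1, is a shuttling RNA-binding protein that resides mostly in the nucleus and binds U-rich and AU-rich elements, many of them in introns and 3'UTRs. In the cytoplasm it is known for prolonging the life of short-lived mRNAs, such as those of immediate early genes, and for influencing their translation. Arsenite is an oxidative stressor that halts most translation and drives mRNAs and proteins, G3BP1 among them, into stress granules.

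Huh-7.5 is an established line derived from human hepatocellular carcinoma. The table held 58 libraries of tags crosslinked by ultraviolet light to HuR and recovered with a HuR antibody (CLIP), from mock cells or cells given 0.5 mM sodium arsenite for 45 min. Of these, 12 came from wild-type cells without an APEX reaction, as nuclear and cytoplasmic fractions with 3 libraries per fraction and treatment. The other 46 came from lines that carry APEX, a peroxidase that tags nearby proteins with biotin once biotin phenol and hydrogen peroxide are supplied. It was fused to a nuclear localization signal (APEX-NLS), to a nuclear export signal (APEX-NES) or to G3BP1 (APEX-G3BP1). Input libraries numbered 2 mock and 2 arsenite for NLS, 2 and 2 for NES, and 4 and 5 for G3BP. Enriched libraries, which added a streptavidin capture, numbered 4 and 4 for NLS, 4 and 4 for NES, and 6 and 7 for G3BP. Whether the replicates of a group came from separate cultures, and whether a line was 1 clone, is not given in the sources used here, so the p-values below measure only the spread between these samples, which may be technical.

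Tags in peaks ranged from 235471 to 673322 in the fraction libraries, from 1353 to 484305 in the inputs and from 519 to 86419 in the enriched libraries. All fraction libraries belonged to 1 library set, as the prefix in the sample descriptions gives it, so fractionation and library set cannot be told apart. Tags of the hepatocyte markers ALB, AFP and HNF4A were present in every fraction group, as were tags of 11 of 13 such genes in mock, while APOA1 and TTR had no peak in the table used here. MALAT1, a lncRNA retained in the nucleus, had a mock mean of 2561 CPM in the nuclear and 2394 CPM in the cytoplasmic libraries, so the cytoplasmic fraction held tags of nuclear RNA. NORAD, a mostly cytoplasmic lncRNA, ranged from 25.1 to 30.0 CPM in nuclear mock and from 108 to 137 CPM in nuclear arsenite libraries, with a cytoplasmic mean of 141 CPM in mock and 111 CPM after arsenite. The second marker of each kind differed. NEAT1, another nuclear lncRNA, averaged 413 CPM in nuclear and 125 CPM in cytoplasmic mock. OIP5-AS1, listed as cytoplasmic, went from 18.8 to 29.9 CPM in the nucleus and from 36.6 to 43.8 CPM in the cytoplasm. Among blood, fibroblast, endothelial and neural markers SNAP25 was highest, with 14.6 CPM in nuclear mock. What part these values play in the nuclear values of the 585 peaks was not tested. All libraries are CLIP libraries, so fewer HuR tags per RNA and less RNA cannot be told apart. Values are also shares of a library, so each depends on the rest of it. All 3'UTR peaks together held 37.1% to 45.3% of the cytoplasmic tags in peaks in mock and 23.5% to 25.3% after arsenite.

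The summed level of the 585 peaks shows the size of the selected difference. In the nuclear mock libraries the sum ranged from 4564 to 5305 CPM, and in the nuclear arsenite libraries from 17046 to 18873 CPM. That is a 3.53-fold difference between the means, and it describes how the peaks were chosen. For the 413 comparison peaks the same ratio was 1.11. All 3'UTR peaks together held 11.1% to 12.1% of the nuclear tags in peaks in mock and 18.2% to 20.7% after arsenite.

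**Figure D1:**
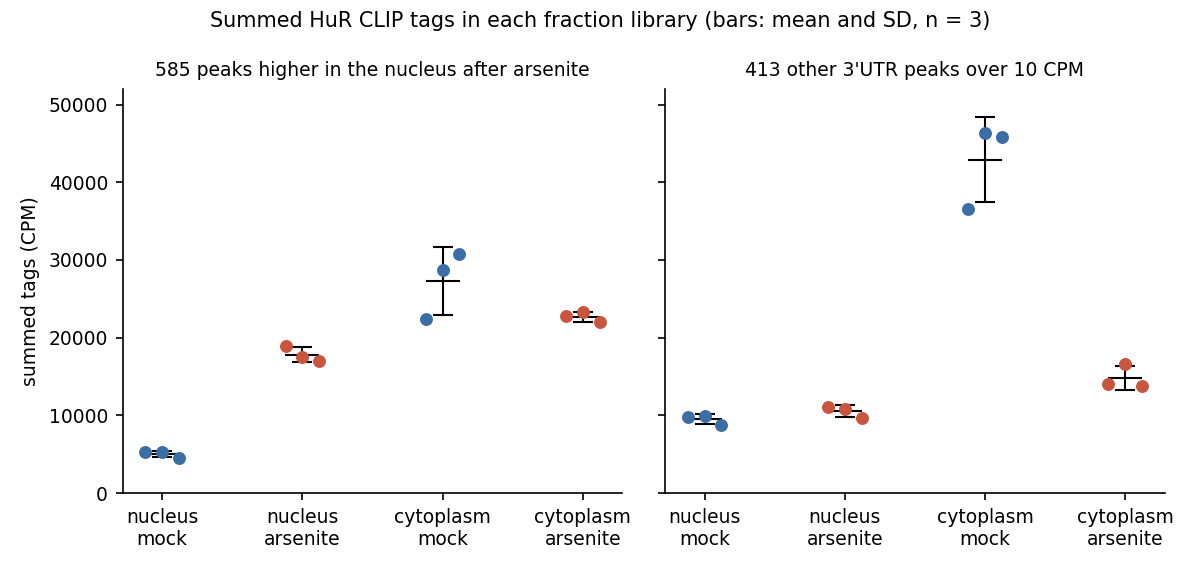
Summed HuR CLIP tags (CPM) of the 585 peaks (left) and of the 413 other 3'UTR peaks over 10 CPM (right) in each of the 12 fraction libraries; points are libraries, and bars give the mean and SD of 3. The 585 peaks sit between 17046 and 18873 CPM in the nuclear arsenite libraries against at most 5305 CPM in nuclear mock, while their cytoplasmic sums lie between 21990 and 30820 CPM.

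Among the 585 peaks the nuclear ratio had a median of 3.10 and ran from 2.01 to 21.8. It was at least 3 for 311 peaks, at least 4 for 165 and at least 8 for 15. In 567 peaks all 3 nuclear arsenite libraries exceeded all 3 mock libraries. Of all peaks with a tag in at least 3 nuclear libraries 7.66% were separated in this way, and of such 3'UTR peaks 20.3%, but since the rule used this contrast nothing is read from the count. The mock level was under 3 CPM for 107 peaks, where a ratio rests on few tags, and 527 peaks had a tag in all 3 nuclear mock libraries.

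The thresholds cut a continuous range. Just outside the ratio lay peaks of ANP32E (1.998) and SNX14 (1.9996), and just inside it PRKCA (2.006) and CMPK1 (2.007). Just under the minimum lay WAPL at 9.94 CPM and TNKS2 at 9.96 CPM, and just over it RAB3D at 10.003 CPM and LIN7C at 10.004 CPM.

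The 585 peaks, each 20 nt long, lay in 460 genes, and 1 peak had no gene name. Of these genes 371 held 1 peak, 67 held 2 and 22 held 3 or more, so peaks of a gene share their transcripts and are not independent. MIDN, whose protein midnolin carries short-lived nuclear proteins to the proteasome, had 7 peaks, and HNRNPH1, a splicing regulator, had 5. Genes with 4 included TRIM71, TNRC6B, LARP1, GATAD2A, NUFIP2 and ARID3A. The choice was often not shared along a 3'UTR: of 145 genes with a chosen peak and at least 2 peaks over the minimum, 73 also held one that missed the ratio. By their annotation 310 peaks were 3'UTR only, and 220 overlapped an intron or retained intron of some transcript. The median distance to the 3' end of the RefSeq gene was 1673 nt (quartiles 657.5 and 3327) for 580 peaks inside a matched gene, and 1425 nt for 408 comparison peaks.

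Intronic HuR tags of the same genes are given as a description. Over the 311 genes whose intron peaks summed to at least 5 CPM in the mean of nuclear mock and arsenite, the median ratio of arsenite to mock was 0.893, against 0.881 over 192 genes that held only comparison peaks. In the cytoplasm 294 and 180 genes passed the same minimum there, with medians of 1.34 and 1.40. Summed over all their 3'UTR peaks, the cytoplasmic ratio had a median of 0.741 for the 460 genes and 0.463 for the 276 genes with only comparison peaks.

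Immediate early and short-lived transcripts are the textbook class of HuR targets. Of 10 peaks over the minimum in a list of such genes 8 were chosen, where 58.6% of all 3'UTR peaks over the minimum were: a pair each in JUN, JUND and ZFP36L1 and 1 each in KLF6 and ZFP36L2. JUN and JUND encode subunits of the AP-1 transcription factor, and ZFP36L1 and ZFP36L2 encode proteins that bind AU-rich elements and speed mRNA decay. The list was drawn up with earlier results of these data known, so its count describes these peaks only. In the cytoplasm limma and edgeR each called 4 of the 8, all higher, and the ZFP36L2 and KLF6 peaks were not among them.

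JUND carried the highest nuclear arsenite level of the 585. Its peak at chromosome 19, 18280036 to 18280056, minus strand, read 52.5, 51.8 and 52.1 CPM in nuclear mock and 508, 486 and 572 CPM in nuclear arsenite libraries, a ratio of 9.84. In the cytoplasm it read 121, 194 and 207 CPM in mock and 501, 459 and 594 CPM after arsenite. The treatments did not overlap in either fraction, and after arsenite the nuclear and cytoplasmic libraries overlapped each other. The cytoplasmic rise was 1.59 ± 0.20 (SE) on the log2 scale, with an adjusted p of 0.00838 in limma.

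The JUN peak at chromosome 1, 58781523 to 58781543, minus strand, was near the counting limit in mock cells. It read 1.46, 2.73 and 3.86 CPM in nuclear mock and 51.2, 44.8 and 60.6 CPM in nuclear arsenite libraries. Its cytoplasmic values were 7.45, 9.17 and 4.22 CPM in mock and 53.4, 57.4 and 48.7 CPM after arsenite. This was the largest cytoplasmic rise among the 585 peaks called by limma, 2.62 ± 0.27 in log2 (adjusted p = 0.00393). The other JUN peak, starting at 58781358, rose by 2.17 in limma (adjusted p = 0.0118). In edgeR it had the larger log2 rise of the 2, 3.07 against 2.92.

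The ZFP36L1 peak starting at 68788710 on chromosome 14 read 8.74, 10.0 and 4.83 CPM in nuclear mock and 66.5, 61.6 and 62.4 CPM in nuclear arsenite libraries. In the cytoplasm it rose from 38.3, 41.8 and 44.3 CPM to 80.9, 94.4 and 96.7 CPM, a log2 difference of 1.09 ± 0.19 (limma adjusted p = 0.0325). The peak of its close relative ZFP36L2 was not higher in the cytoplasm, with 123, 160 and 149 CPM in mock and 93.1, 113 and 83.5 CPM after arsenite, which was not called (adjusted p = 0.0953 in limma). KLF6, a zinc finger factor induced early by many stimuli, averaged 13.2 CPM in cytoplasmic mock and 22.1 CPM after arsenite and was not called (adjusted p = 0.152 in limma).

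Outside that list the largest nuclear ratio belonged to FOXK2, a forkhead transcription factor. It had no tag in 2 nuclear mock libraries and 1.93 CPM in the third, against 26.4, 32.8 and 45.0 CPM after arsenite (ratio 21.8). Its cytoplasmic values, 4.25, 10.2 and 16.9 CPM against 45.5, 38.7 and 36.2 CPM, did not overlap but missed the limma threshold (adjusted p = 0.0513), while edgeR called the rise (adjusted p = 0.000573).

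GNA11, the alpha subunit of a Gq-family G protein, had a peak starting at 3121850 on chromosome 19. It read 4.37, 15.5 and 7.72 CPM in nuclear mock and 131, 137 and 150 CPM after arsenite. In the cytoplasm it rose from 36.2, 39.7 and 53.8 CPM to 170, 130 and 170 CPM (log2 difference 1.81 ± 0.21, limma adjusted p = 0.00622). A second GNA11 peak, upstream and starting at 3121345, averaged 13.9 CPM in cytoplasmic mock and 6.45 CPM after arsenite and was not called. The difference between the 2 peaks was not tested.

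Chromatin and transcription regulators were the list with the most chosen peaks, 23 of 29 over the minimum in 14 genes, among them KMT2A, KMT2D, MED13L, CHD4 and ARID1A. In the cytoplasm 2 of the 23 rose and none fell by limma, and edgeR called 4 higher and 3 lower. KDM5C, a histone H3K4 demethylase, read 17.5, 5.46 and 7.72 CPM in nuclear mock and 96.9, 86.4 and 114 CPM after arsenite. Its cytoplasmic level rose from 29.8, 37.7 and 38.0 CPM to 151, 108 and 121 CPM (log2 difference 1.78 ± 0.20, adjusted p = 0.00622). KDM2A, an H3K36 demethylase, rose by 1.21 in the cytoplasm (adjusted p = 0.0375).

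Some of the largest nuclear ratios came with no cytoplasmic call. ACTB, cytoplasmic beta-actin, read 0, 0 and 0.966 CPM in nuclear mock and 22.4, 14.4 and 18.2 CPM after arsenite, against 4.25, 8.15 and 8.44 CPM and 10.8, 23.9 and 11.8 CPM in the cytoplasm. The cytoplasmic libraries did not overlap, but the log2 difference of 0.91 was not called (limma adjusted p = 0.148), and tags of ACTB may be split with its processed pseudogenes. This is a minor peak of the gene. Over all 5 ACTB 3'UTR peaks the cytoplasmic sum went from 2385 to 1032 CPM. Its comparison peaks had nuclear ratios of 1.02, 1.23 and 1.82 and were called lower in the cytoplasm by limma (adjusted p = 0.00190, 0.0118 and 0.00285). PRKAR1A, a regulatory subunit of protein kinase A, had a ratio of 9.42 with cytoplasmic values of 10.6, 8.15 and 11.6 CPM against 5.78, 11.4 and 12.5 CPM, which overlapped. ARF1, a small GTPase of vesicle traffic, read 0, 1.82 and 0 CPM in nuclear mock and 24.8, 13.6 and 18.2 CPM after arsenite, and its cytoplasmic difference of 0.68 was not called (limma adjusted p = 0.328). SH2D4A, an SH2 domain protein, read 1.46, 0.909 and 0.966 CPM in nuclear mock and 24.8, 15.2 and 15.6 CPM after arsenite, with overlapping cytoplasmic values of 17.0, 28.5 and 40.1 CPM and 27.4, 18.8 and 15.3 CPM.

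The abundant peaks of KPNB1, HNRNPU and HMGCS1 had no called rise in the cytoplasm. KPNB1, importin beta 1, read 159, 150 and 122 CPM in nuclear mock and 588, 444 and 512 CPM after arsenite, while its cytoplasmic values of 379, 581 and 497 CPM and 557, 487 and 458 CPM overlapped. HNRNPU, a nuclear RNA-binding scaffold protein, read 122, 123 and 107 CPM in nuclear mock and 283, 261 and 246 CPM after arsenite, and in the cytoplasm it fell from 719, 848 and 1043 CPM to 401, 498 and 338 CPM (log2 difference -1.07, limma adjusted p = 0.0200, but 0.0799 in edgeR). HMGCS1, a synthase early in the cholesterol pathway, read 65.6, 60.0 and 53.1 CPM in nuclear mock and 207, 170 and 159 CPM after arsenite. Its cytoplasmic difference of -0.58 missed the threshold (limma adjusted p = 0.0938).

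**Figure D2:**
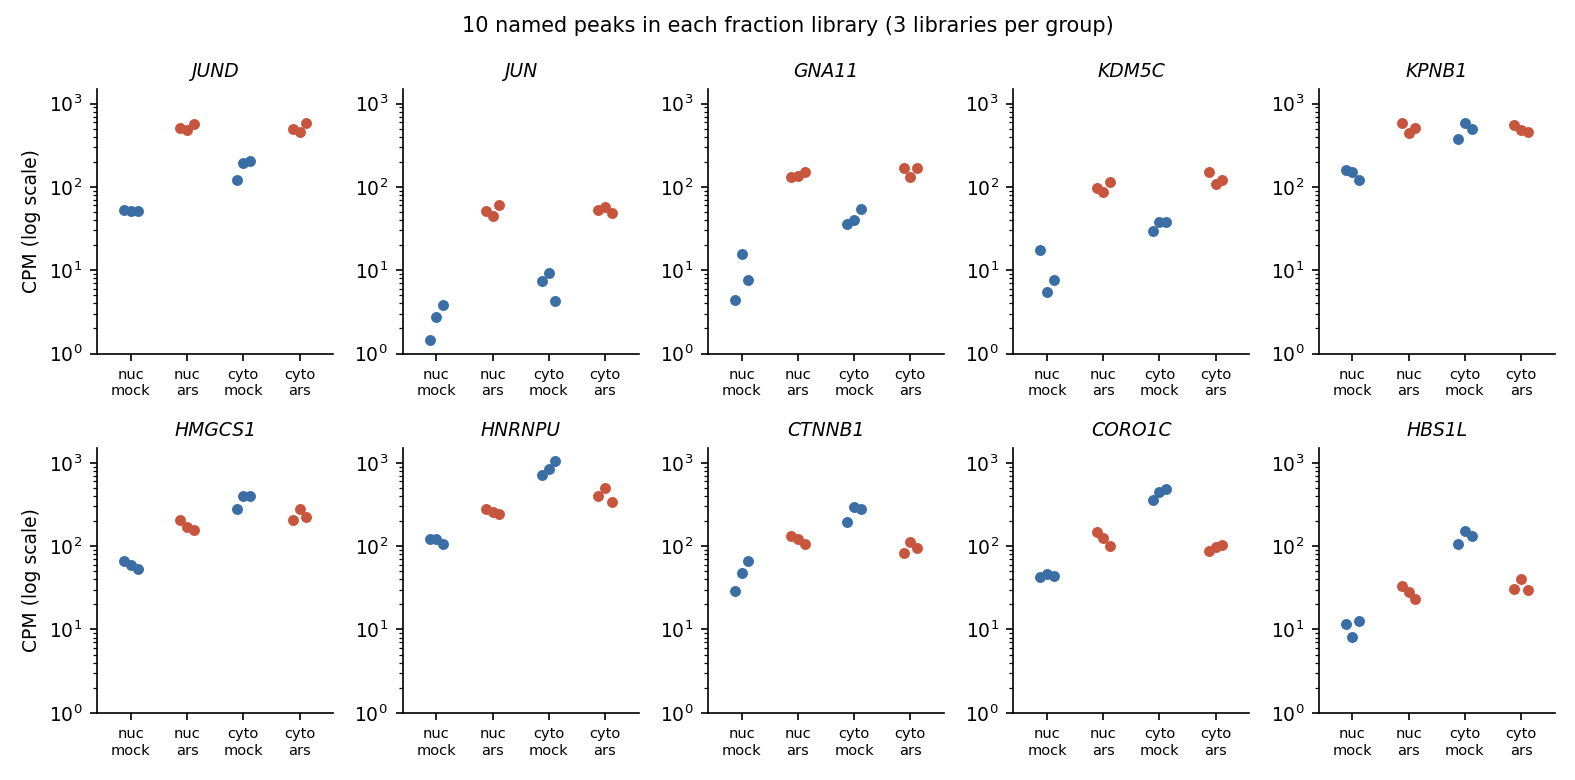
Level (CPM, log scale) of 10 named peaks in each fraction library, 3 libraries per group, with mock in blue and arsenite in red. The cytoplasmic arsenite points lie above mock for JUND, JUN, GNA11 and KDM5C, overlap with mock for KPNB1 and lie below mock for HNRNPU, CTNNB1, CORO1C and HBS1L; HMGCS1 showed no called cytoplasmic difference.

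The cytoplasmic libraries took no part in the choice of peaks, although the labels do not say whether both fractions were prepared from the same cells. All 585 peaks had a tag in at least 3 of the 6 cytoplasmic libraries and were tested with limma on log2(CPM + 2.28) among 193897 peaks. It called 64 at an adjusted p under 0.05, 15 higher in 14 genes and 49 lower in 49 genes. Of all tested peaks 0.760% were called, 0.240% higher and 0.520% lower. Of the 413 comparison peaks 2 were called higher and 197 lower. The median log2 difference was -0.14 for the 585 peaks, -1.19 for the comparison peaks and 0.08 over all tested peaks. The call count rested on the mock libraries: without the library numbered 2 limma called none of the 585, without number 3 it called 3 (2 higher and 1 lower), and without number 1 it called 22. Over all peaks these fits called 0 of 266585, 43 of 266339 and 220 of 264555, so the loss was not particular to the 585. Fits without 1 arsenite library called 14659 to 16959 peaks, with 65 to 72 of the 585. The edgeR quasi-likelihood test on the recovered tags called 134, 39 higher and 95 lower, where it called 1.44% of all tested peaks (0.437% higher and 1.01% lower). Both tools called 61 peaks in the same direction, and edgeR did not call the limma calls in HNRNPU, SLC38A2 and SRSF9.

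In 121 of the 585 peaks all 3 cytoplasmic arsenite libraries exceeded all 3 mock libraries, where 16.1% of all tested peaks and 6.47% of tested 3'UTR peaks did. In 179 they lay below all 3 mock libraries, where 7.10% of all tested peaks and 21.3% of tested 3'UTR peaks did. For the comparison peaks these counts were 13 and 308 of 413. The summed cytoplasmic level of the 585 peaks was 22424, 28699 and 30820 CPM in mock and 22735, 23275 and 21990 CPM after arsenite. These groups overlapped, with a ratio of means of 0.830, against 0.345 for the comparison peaks. As a share of cytoplasmic 3'UTR tags the 585 peaks held 17.1% in mock and 24.9% after arsenite.

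The 15 peaks that rose in the cytoplasm had nuclear ratios of 3.78 to 14.5 (median 5.29). Beside JUN, JUND, GNA11, KDM5C, KDM2A and ZFP36L1 they lay in CREBZF, TSPYL1, NADK2, ZKSCAN1, ANP32E, FANCD2, PALM2AKAP2 and SRSF9. CREBZF, a basic leucine zipper protein, read 9.57, 10.2 and 8.44 CPM in cytoplasmic mock and 45.5, 34.1 and 39.0 CPM after arsenite, a log2 rise of 1.83 (limma adjusted p = 0.00960). TSPYL1, of the nucleosome assembly protein family, rose from 27.7, 22.4 and 21.1 CPM to 78.7, 63.7 and 59.1 CPM. The nuclear mock values of CREBZF, 8.74, 10.0 and 14.5 CPM, overlapped its cytoplasmic mock values, whereas most of the 585 peaks were lower in the nucleus.

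The 49 peaks that fell in the cytoplasm had nuclear ratios of 2.01 to 3.58 (median 2.46). CORO1C, an actin-binding coronin, had the smallest adjusted p of the 585: its cytoplasmic level fell from 361, 450 and 482 CPM to 86.6, 96.6 and 103 CPM (log2 difference -2.14 ± 0.15, adjusted p = 0.000941 in limma), while the nuclear level was 42.3, 46.4 and 44.4 CPM in mock and 148, 124 and 99.6 CPM after arsenite. After arsenite the nuclear mean was thus above the cytoplasmic one. EAF1, a cofactor of the transcription elongation factor ELL, fell most, from 26.6, 44.8 and 34.8 CPM to 3.61, 6.82 and 4.87 CPM (log2 difference -2.35).

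HBS1L, a GTPase that rescues stalled ribosomes, fell in the cytoplasm from 107, 151 and 134 CPM to 31.0, 40.4 and 29.9 CPM, and its nuclear values were 11.7, 8.18 and 12.6 CPM in mock and 33.6, 28.0 and 23.4 CPM after arsenite. After arsenite its nuclear and cytoplasmic libraries overlapped. CTNNB1, beta-catenin, fell from 198, 297 and 276 CPM to 83.7, 112 and 94.6 CPM (log2 difference -1.38, limma adjusted p = 0.0132). Other calls in this direction included DNAJA2, an HSP40 co-chaperone, at -1.98, and TULP4, a tubby-like protein, at -2.03. MYH9, a non-muscle myosin heavy chain, fell from 291, 311 and 379 CPM to 160, 184 and 143 CPM (limma adjusted p = 0.0209). HNF4A, the hepatocyte nuclear receptor, fell by 1.46 on the log2 scale.

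Across the 585 peaks the log2 nuclear ratio and the cytoplasmic log2 difference had a Pearson r of 0.483, a description over peaks that share the same 12 libraries and often a gene. The cytoplasmic difference was above 0 in 124 of 165 peaks with a nuclear ratio of at least 4, and in 74 of 274 with a ratio under 3.

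**Figure D3:**
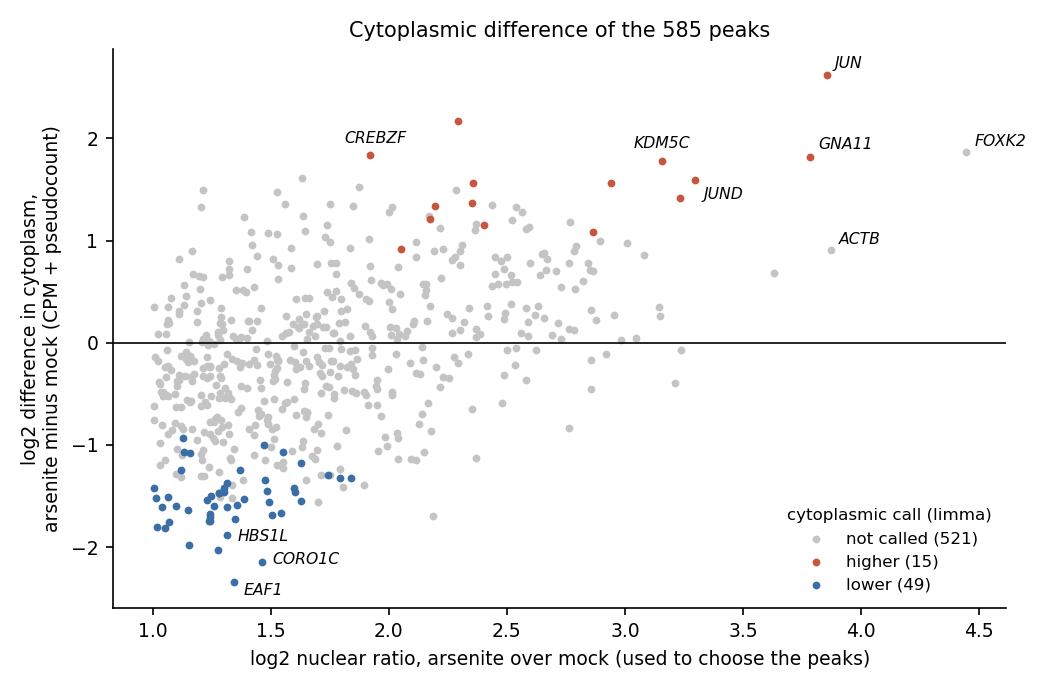
Cytoplasmic log2 difference (arsenite minus mock, CPM plus pseudocount) of the 585 peaks against the log2 nuclear ratio that was used to choose them, with limma calls coloured (15 higher, 49 lower, 521 not called). Calls higher lie at nuclear ratios of 3.78 and above, and calls lower at ratios of 3.58 and below.

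The level in the nucleus was also set beside that in the cytoplasm, as a description, since the choice of peaks fixes part of any shift. In mock cells the nuclear mean was below the cytoplasmic mean for 577 of the 585 peaks, with a median ratio of 0.242. After arsenite it was below for 343, with a median of 0.915. Within 1.5-fold of each other lay the fractions of 22 peaks in mock and 359 after arsenite. For the comparison peaks, which the same nuclear values set apart, these numbers were 33 and 210 of 413. Both fractions are scaled to their own totals, so these ratios are no measure of the amount of RNA in a compartment, and no test was made because the nuclear libraries chose the peaks. Nuclear and cytoplasmic log2 levels correlated over the 585 peaks with r = 0.788 in mock and 0.814 after arsenite, again over peaks from the same libraries.

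**Figure D4:**
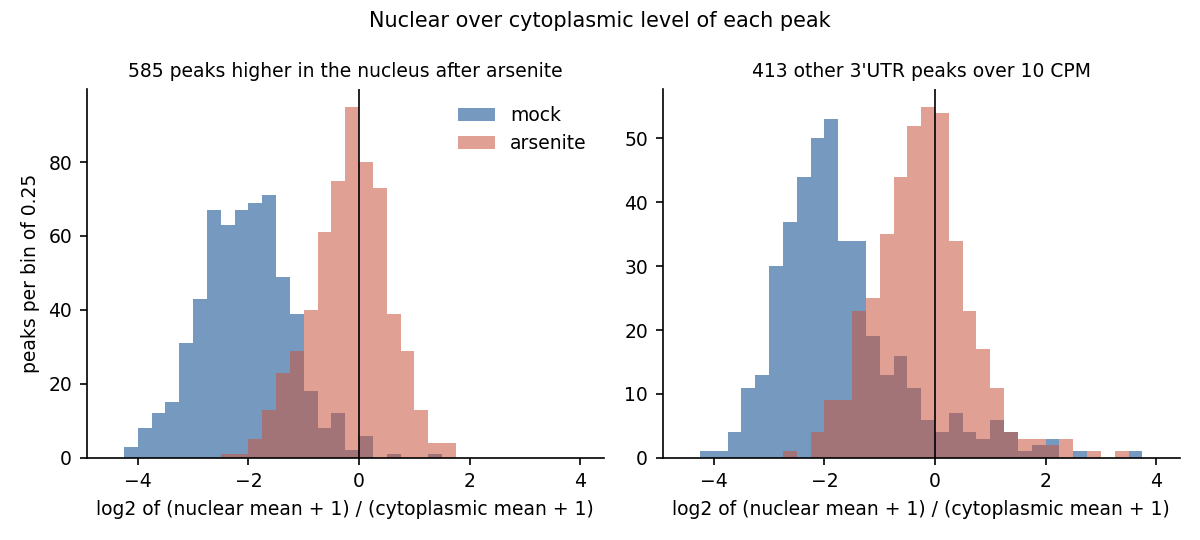
Number of peaks by log2 of (nuclear mean + 1) over (cytoplasmic mean + 1), in bins of 0.25, in mock (blue) and arsenite (red), for the 585 peaks (left) and the 413 other 3'UTR peaks over 10 CPM (right). For the 585 peaks the median ratio was 0.242 in mock and 0.915 after arsenite, and both sets of peaks lie near 0 after arsenite.

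Stress and housekeeping gene lists differed in how many of their 3'UTR peaks were among the 585. In the list of stress granule proteins 17 of 20 peaks over the minimum were chosen, in DDX6, DDX3X, IGF2BP1, NUFIP2, PRRC2C, YTHDF1, YTHDF3, G3BP1 and ELAVL1 itself. None of the 17 was called in the cytoplasm by limma, edgeR called 1 higher and 3 lower, and 9 had a difference above 0. DDX6, a helicase of processing bodies, read 10.2, 9.09 and 7.72 CPM in nuclear mock and 61.7, 69.6 and 72.8 CPM after arsenite, and its cytoplasmic values of 40.4, 76.4 and 72.8 CPM and 118, 114 and 115 CPM did not overlap (log2 difference 0.90, limma adjusted p = 0.0788). The ELAVL1 peak, at the edge of the minimum, averaged 3.50 CPM in nuclear mock and 10.02 CPM after arsenite. The G3BP1 peak averaged 4.77 and 12.5 CPM.

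Of the heat shock and chaperone list 3 of 5 peaks were chosen, HSPA9, HSPA1B and HSP90AA1, and HSPA1B fell in the cytoplasm by 1.66 on the log2 scale (limma adjusted p = 0.0431), though its reads cannot be separated with certainty from the near-identical HSPA1A. The oxidative stress list contributed TXNRD1 and GSR, 2 of 4, both reductases, neither called in the cytoplasm by limma, while edgeR called TXNRD1 lower (adjusted p = 0.0404). The cell cycle and p53 list gave 6 of 7 in CCND1, E2F3, MDM2, MDM4 and WEE1, with no cytoplasmic call by limma and 1 by edgeR, MDM2 lower (adjusted p = 0.00773). The survival list gave 3 of 3, and BIRC5 (survivin) and BIRC6 fell in the cytoplasm by 1.81 and 1.45. PTMA, the third, was called lower by edgeR only (adjusted p = 0.0444) and is uncertain because processed copies of it exist.

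RNA silencing and decay genes had 10 of 13 peaks chosen, among them peaks of TNRC6B, AGO1, CNOT6, DGCR8 and KHSRP, with AGO1 lower in the cytoplasm by 1.74 in limma. By edgeR AGO1 and the TNRC6B peak starting at 40324305 (adjusted p = 0.0127) were lower. Wnt, Notch and Hippo genes had 4 of 14, with CTNNB1 lower in the cytoplasm by both tools and NF2 (merlin, of the Hippo pathway) not called. Solute carriers had 2 of 17, SLC50A1 and SLC38A2, and SLC38A2, a neutral amino acid transporter, fell in the cytoplasm by 0.93 in limma (adjusted p = 0.0138, but 0.0558 in edgeR). Peaks of the nuclear transport list numbered 4 of 6, in KPNB1, RAN, TNPO2 and XPO1, with no cytoplasmic call by limma and RAN lower by edgeR. Zinc finger (ZNF) genes had 9 of 14, among them ZNF121, ZNF362 and ZNF746. ZNF770 fell in the cytoplasm by 1.47 in limma (adjusted p = 0.0182), and edgeR called ZNF770 lower and ZNF207 higher, the latter a description since its peak passed the filter only with the arsenite libraries. MAPK, PI3K and insulin signalling genes had 5 of 10, with GRB2 and RICTOR among them, cholesterol and lipid synthesis genes 6 of 10, with HMGCS1, FADS2 and INSIG1, and proteasome subunits 1 of 3, PSMD11; none of these 12 was called in the cytoplasm by limma or edgeR. RAB GTPases had 3 of 4, in RAB3D, RAB5A and RAB12, with RAB5A higher in the cytoplasm by edgeR only (adjusted p = 0.0478). The integrated stress response list had none of 1. None of the 585 came from 3 lists of abundant housekeeping and secreted proteins: 0 of 2 for cytosolic ribosomal proteins, although 50 of their genes had a 3'UTR peak, 0 of 0 for oxidative phosphorylation and 0 of 2 for hepatocyte plasma proteins. These shares stand beside 58.6% for all peaks over the minimum, and nothing particular to a list is claimed from them.

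Genes with several peaks showed how far a single 3'UTR could vary. The 7 MIDN peaks lay between 1257428 and 1258926 on chromosome 19 and had nuclear ratios of 2.18 to 5.35. The most abundant of them read 24.8, 31.8 and 32.8 CPM in nuclear mock and 166, 142 and 145 CPM after arsenite, and its cytoplasmic log2 difference was 0.76, while that of the peak starting at 1258906 was -0.81. Neither was called by limma or edgeR.

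TRIM71, the LIN-41 protein that is a known let-7 target, varied more. Its peak starting at 32891940 on chromosome 3 read 46.8, 66.2 and 64.3 CPM in cytoplasmic mock and 117, 105 and 105 CPM after arsenite (log2 difference 0.87, limma adjusted p = 0.0684), and the peak starting at 32897208 fell from 70.2, 92.7 and 87.5 CPM to 20.9, 33.5 and 15.3 CPM (-1.80, adjusted p = 0.0208). Neither peak's groups overlapped, with arsenite higher at the first and lower at the second. LARP1, which binds 5' TOP mRNAs, had 1 of 4 peaks called by limma, lower by 1.25, and edgeR also called the peak starting at 154816558 lower (adjusted p = 0.0121). The 5 HNRNPH1 peaks had no cytoplasmic call by limma or edgeR, and the most abundant read 188, 166 and 143 CPM in nuclear mock and 416, 404 and 411 CPM after arsenite.

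Input libraries hold HuR tags of whole APEX cells. Each line and library set held 1 mock and 1 arsenite input library, except 2 mock and 3 arsenite libraries for G3BP in set JL0361. Most ratios below are thus of single libraries and have no spread. Summed over the 585 peaks the input tags were higher after arsenite in each line and library set, by 1.64-fold to 4.51-fold, and the comparison peaks by 1.08-fold to 3.24-fold. The largest of these, in G3BP inputs of 1 set, rests on a mock library with 31 tags in the 585 peaks, and as a share of tags in peaks it was 2.28-fold (1.64-fold for the comparison peaks). As a share of 3'UTR tags the sums were 1.07-fold to 1.39-fold higher, and the smallest of these, in G3BP inputs of set JL0361, had overlapping treatments. The mean input level was higher after arsenite for 528 of 585 peaks, and for 353 of 413 comparison peaks.

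Peak by peak the inputs were less decisive. Of the 585 peaks 515 passed the filter on tags, and limma, with line and library set in the model, called none of them and 0% of 17091 tested peaks (157 of the 515 had an unadjusted p under 0.05). The edgeR quasi-likelihood test on the recovered tags called 60, all higher, where it called 1.61% of all tested peaks (1.40% higher and 0.216% lower) and 11 of 394 comparison peaks. All 60 passed the filter, a tag in at least 8 of 17 libraries, only with the arsenite libraries, so these calls are a description. The median log2 difference in limma was 0.76 for the 515, 0.70 for the comparison peaks and 0.17 over all tested peaks.

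The edgeR calls in the inputs included peaks of JUN, JUND, ACTB, DDX6, FZD4, MYH9, RAB5A, TNRC6B and MIDN. JUND read 8.03 and 8.77 CPM in the NLS mock inputs and 40.5 and 51.6 CPM in the arsenite ones, and in G3BP inputs 0 to 28.5 CPM (median 4.57, 4 libraries) against 16.6 to 189 CPM (median 176, 5 libraries). JUN read 0 and 1.24 CPM in the NLS mock inputs and 3.36 and 25.7 CPM in the arsenite ones. In NES inputs it read 0 and 3.596 CPM against 0 and 19.8 CPM, and in G3BP inputs 0 to 4.74 CPM (median 0.653) against 0 to 15.7 CPM (median 5.53), both of which overlapped. Of the 49 peaks that fell in the cytoplasmic fraction 42 had a higher mean input level after arsenite, and of the 15 that rose 14 did.

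The enriched libraries of APEX-G3BP1 are tags near the stress granule protein. Summed over the 585 peaks they were 2.74-fold, 2.81-fold and 1.91-fold higher after arsenite in the 3 library sets, with no overlap within a set, against 2.03-fold, 2.20-fold and 1.75-fold for the comparison peaks. Of the 585 peaks 502 had at least 3 tags in the arsenite libraries and 388 in the mock libraries, and the mean was higher after arsenite in 482. For the 413 comparison peaks these counts were 367, 325 and 329. The arsenite group holds 7 libraries and the mock group 6, so the counts with 3 tags are not on equal terms. Limma tested 283 of the 585 and called none, as it called 0% of 1505 tested peaks (78 of the 283 had an unadjusted p under 0.05). The edgeR test called 20, all higher, and 3.12% of all tested peaks (2.79% higher and 0.332% lower). All 20 passed the filter, a tag in at least 6 of 13 libraries, only with the arsenite libraries, so these calls are a description. Of 256 tested comparison peaks it called 13 higher. The median log2 difference in limma was 1.35 for the 283 peaks, 1.22 for the comparison peaks and 0.95 over all tested peaks.

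The peaks that edgeR called in these libraries included JUND, CORO1C, HMGCS1, GABPB1, TRIM71 and HNRNPH1. HMGCS1 had a tag in 3 of 6 mock libraries (0 to 65.8 CPM, median 6.35) and in 7 of 7 arsenite libraries (59.8 to 194 CPM, median 101). The HNRNPH1 peak starting at 179614769 had 0 to 87.9 CPM in mock (median 6.61) and 33.8 to 269 CPM after arsenite (median 154). CORO1C, which fell in the cytoplasmic fraction, had 0 to 158 CPM (median 28.3) against 0 to 383 CPM (median 120). In each of the 3 the ranges of the groups overlapped. The mean G3BP enriched level was higher after arsenite for 45 of the 49 peaks that fell in the cytoplasmic fraction and for 13 of the 15 that rose. It was also higher for 482 of all 585 peaks and 329 of the 413 comparison peaks, so nothing particular to the 49 is read from it.

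**Figure D5:**
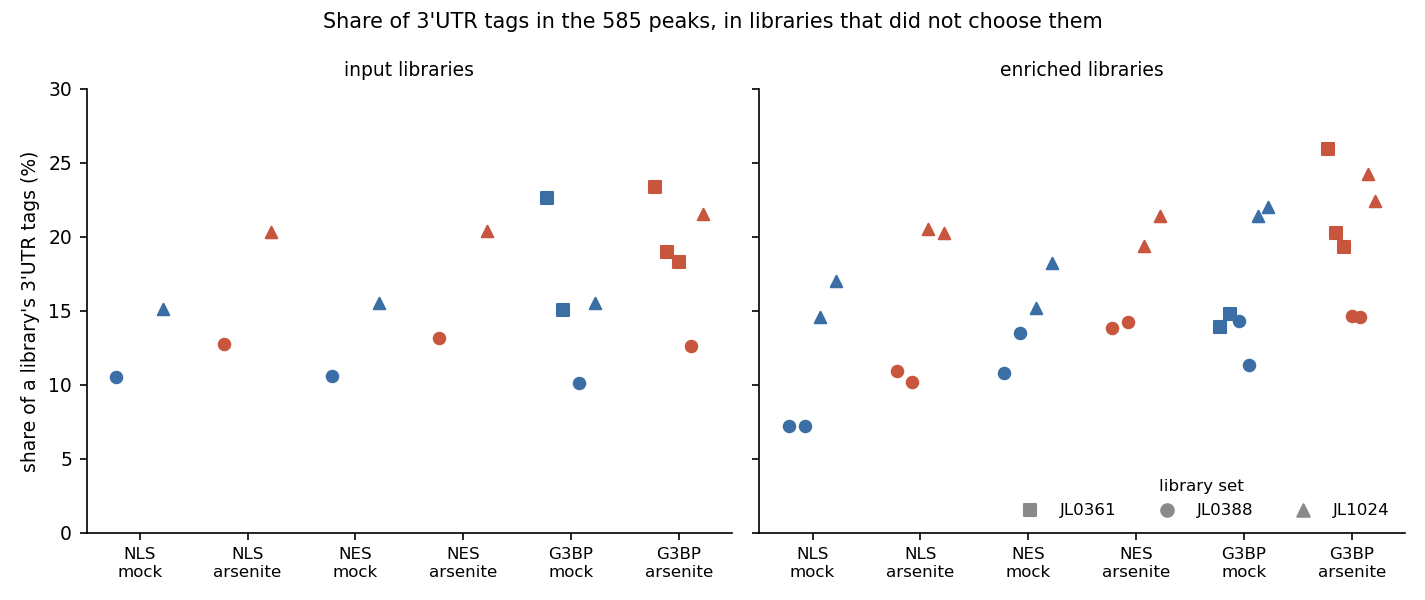
Share (%) of each library's 3'UTR tags that lay in the 585 peaks, for input (left) and enriched (right) libraries of the NLS, NES and G3BP lines, by treatment (mock blue, arsenite red) and library set (marker shape). Within a library set the mean arsenite share was 1.07-fold to 1.52-fold the mean mock share in every line. In the G3BP inputs of set JL0361 the treatments overlapped, with 22.6% and 15.1% in mock and 23.4%, 19.0% and 18.3% after arsenite. The sets stand apart from each other for NLS and NES, while some overlap for G3BP.

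Libraries enriched near nuclear and cytoplasmic APEX held fewer tags in the 585 peaks. Means per library in mock and arsenite were 335 and 596 for NLS, 134 and 459 for NES, and 1075 and 1863 for G3BP. Over all peaks the NLS libraries held 12474 to 35859 tags, within the G3BP range of 519 to 86419. In the NLS enriched libraries the sum over the 585 peaks was 2.01-fold and 2.17-fold higher after arsenite in the 2 library sets, without overlap, against 1.38-fold and 1.67-fold for the comparison peaks. Limma tested 163 of the peaks and called none (0% of 2796; 21 at an unadjusted p under 0.05), and edgeR called none. HNRNPU, among the most abundant here, read 15.1 to 41.0 CPM in 4 mock libraries (median 26.7) and 0 to 58.1 CPM in 4 arsenite libraries (median 42.0), and CTNNB1 2.09 to 47.8 CPM (median 34.5) and 29.0 to 65.0 CPM (median 45.3). Both overlapped between treatments.

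In the NES enriched libraries the sum was 1.75-fold higher without overlap in 1 set and 1.18-fold with overlap in the other, against 1.26-fold and 1.10-fold for the comparison peaks. Limma tested 89 peaks and called none (0% of 753; 7 at an unadjusted p under 0.05), and edgeR called none. A pair of NES mock libraries did not differ beyond the sampling noise (p = 0.444 in a chi-square test over 14 cells). Counted as 1 sample they left the count at 0. Other pairs had a p over 0.05 in that test, but over at most 9 cells, too few to judge. They were 1 of NLS enriched arsenite (0.354), and G3BP pairs of set JL0361 in arsenite inputs (0.116 and 0.303) and enriched arsenite libraries (0.0888 and 0.0757). The JL0361 pairs were not averaged.

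Between labels after arsenite, NLS and NES enriched libraries gave no call among 182 tested peaks (limma, 0% of 1676; 7 at an unadjusted p under 0.05). The edgeR test called none of them and 0.298% of all tested peaks (0.179% higher and 0.119% lower). Between G3BP and NES enriched libraries, in the 2 library sets that hold both, limma called 2 of 221 tested peaks, both higher near G3BP1, where it called 0.491% of all tested peaks. GABPB1, a subunit of the transcription factor GABP, read 33.8, 35.6, 34.2 and 44.8 CPM in the G3BP libraries and 0 in all 4 NES libraries. Its pooled level, from 11 tags, was 14.2-fold a floor of 3 tags over the 4 NES libraries. This leaves out the counting error of the 11 tags and pools both sets. In set JL0388 1 tag equals 26.1 and 13.1 CPM in the NES libraries, so the zeros there say little. The MARCKS peak starting at 113861085, in the mRNA of an actin-binding substrate of protein kinase C, read 22.5, 71.3, 119.6 and 104.6 CPM near G3BP1 and 0, 0, 10.4 and 7.08 CPM near NES (25 and 9 tags).

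Neither gene's G3BP and NES libraries overlapped, but both calls rested on few tags and both peaks passed the filter on tags only with their G3BP libraries, so the calls are a description. With values rescaled to the tags in peaks, or without any 1 of the 8 libraries, limma called none of the peaks. The edgeR test called 42, all higher near G3BP1, where it called 11.0% of all tested peaks higher and 0.0818% lower. Of these, 35 passed the filter only with the G3BP libraries and are likewise a description. Of 201 tested comparison peaks edgeR called 45 higher and limma 3. The 42 included HNRNPU, CORO1C, SLC38A2, IGF2BP1, TXNRD1 and a pair of peaks each in HNRNPH1, TNRC6B and TRIM71. The median log2 difference in limma was 1.52 for the 221 peaks, 1.54 for the comparison peaks and 0.83 over all tested peaks, and the last fell to 0.24 with the rescaled values. The cytoplasmic fraction levels of GABPB1 (37.2, 49.9 and 52.7 CPM in mock, 13.0, 16.5 and 11.8 CPM after arsenite) and of MARCKS (89.3, 128 and 134 CPM, then 58.5, 84.7 and 57.0 CPM) were lower after arsenite in all 3 libraries, and of these peaks GABPB1 was called by limma (adjusted p = 0.0196) and MARCKS was not (adjusted p = 0.0879).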

How the data were processed

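The authors deposited signal for each peak in each library as 1 table. Judged from the values, a signal is a whole number of tags over a library total. Whole tags came out for 100% of values (tolerance 0.01). Per the submitters' processing notes Bowtie2, SAMtools, bedtools and HOMER were used with GRCh38.p14; versions, the peak caller's settings and duplicate removal are not given in the sources used here. Of 395471 lines 8257 repeats were dropped. Coordinates are as deposited, with the counting base (0 or 1) not given. Signal was multiplied by 1000000 (CPM).

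The members and gene lists were chosen with earlier results of these data known. Tests used limma 3.58.1 (lmFit, eBayes with trend, R 4.3.3) on log2(CPM + 2.28), two-sided, over all peaks whose number of libraries with a tag reached the smaller group's size, with library set (and line, for inputs) as covariates and Benjamini-Hochberg adjustment at 0.05. A log2 difference on this scale understates the change of low peaks. As an alternative, edgeR 4.0.16 was run on the recovered tags with library totals; in the cytoplasmic comparison it called 2800 of 193897 peaks. The scripts were tested on simulated data. Floors of 3 tags and intervals cover counting error only. Tables were handled in Python 3.11.15. Named genes were the 10 largest nuclear ratios, the 6 highest nuclear arsenite means, the 5 largest called differences in each direction of each test, the 5 genes with most peaks, the 4 with most G3BP and NLS enriched tags, up to 3 per gene list, and threshold neighbours, at most 1 peak per gene in each part; the remaining called genes, the second JUN and GNA11 peaks, HNF4A, ZNF207, AGO1, KLF6, ELAVL1 and G3BP1 were named after their values were seen. Other alternatives were rescaling to tags in peaks, a smaller pseudocount, other filters, the replicate number as a block and leaving out each library. RefSeq positions came from a symbol match (584 of 585). Peak sequences were not analysed here.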

Additional observations from a re-analysis of the deposited data

How the results depend on the processing

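Under other ways of choosing them, 258 peaks reached a minimum of 20 CPM and 311 a ratio of 3, and leaving out 1 nuclear library gave 554 to 659. Of peaks chosen without the libraries numbered 2, 76.0% were at least 2-fold apart in that pair, and 72.7% with values rescaled to tags in peaks, where 55.1% and 51.6% of all 3'UTR peaks over the minimum were. This reuses the nuclear libraries of the rule and supports nothing. In the cytoplasmic comparison limma called 64 of the 585 peaks (1473 of 193897 over all peaks). Of the 585 edgeR called 134 (2800 of 193897), a pseudocount 4 times smaller 113 (6762 of 193897) and no filter 103 (1786 of 354053). A filter on tags in every library of 1 group called 213 (28883 of 113118), and the replicate block 107 (2347 of 193897). Leaving out 1 library gave 0 to 72, and 0 to 16959 over all peaks. Without cytoplasmic mock library 3 the balance turned, with 3 calls of which 2 were higher. Such fits test more peaks with fewer libraries. Same-numbered deviations correlated at -0.00205 to 0.00188 in the cytoplasm and at -0.0416 to 0.202 in the other comparisons, where no comparison with 3 or more pairs had every value over 0.1, so the numbers were not taken to pair the libraries. With the filter on every library of 1 group, limma called 12 of 29 tested peaks of the 585 in the inputs (36 of 143 over all peaks). In enriched libraries it called 1 of 42 in NLS (34 of 413), 5 of 25 in NES (22 of 181) and 10 of 13 in G3BP (27 of 40). Between labels it called 4 of 45 for NLS against NES (93 of 352) and 40 of 71 for G3BP against NES (146 of 308). This filter lets peaks in through the group where they are high, so these counts are a description. The smaller pseudocount gave 3 of 89 in NES enriched libraries (14 of 753 over all peaks). It gave 4 of 182 for NLS against NES (52 of 1676) and 5 of 221 for G3BP against NES (23 of 1223). Without a filter limma called 9 of 576 in G3BP enriched libraries (25 of 95812 over all peaks). It called 1 of 519 for NLS against NES (14 of 83077) and 8 of 539 for G3BP against NES (22 of 42049). Rescaling gave 3 of 182 for NLS against NES (54 of 1676 over all peaks) and 0 of 221 for G3BP against NES (0 of 1223). In that last comparison the replicate block gave 0, leaving out any 1 library 0, and edgeR 42; edgeR gave 60 in the inputs and 20 in the G3BP enriched libraries. Averaging the JL0388 libraries of each group, an alternative chosen after seeing the data because pairs of that shallow set could not all be told apart, left 0 calls in all 5 comparisons of enriched libraries. The cause of these shifts was not tested. Depth limits the enriched libraries most: the shallowest, a G3BP mock library, holds 17 tags in the 585 peaks.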
